A study of Rattus norvegicus with 6 samples.

Results

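The 10 genes described here are the fibroblast growth factor (FGF) receptors Fgfr1, Fgfr2, Fgfr3 and Fgfr4 and the ligands Fgf1, Fgf2, Fgf7, Fgf9, Fgf18 and Fgf21, chosen by symbol out of 18923 genes in the files. FGFs are secreted proteins that act through the receptor tyrosine kinases FGFR1 to FGFR4. Heparan sulfate, or for hormone-like members such as FGF21 a Klotho protein, helps the ligand to bind. Activated receptors signal through the RAS-ERK, PI3K and PLCγ routes, and ERK raises the genes of its own inhibitors. In the growth plate, FGFR3 restrains the proliferation and the matrix production of chondrocytes, FGFR1 is known from hypertrophic and osteoarthritic cartilage, and FGF9 and FGF18 are the main skeletal ligands.

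Wild-type (WT) primary chondrocytes of 24-hour-old female Sprague-Dawley rats, at passage 1 or 2, were cultured in high-glucose DMEM with 10% FBS and penicillin-streptomycin. The RA group (n = 3) also received 1 µM all-trans retinoic acid (RA), derived from vitamin A and a ligand of nuclear receptors, for 24 h, while the CON group (n = 3) received the medium without it for the same time. The labels name no solvent control, and nothing in them ties a sample to an animal, so p-values measure only the spread between these samples. Poly(A) RNA was sequenced, and total counts ran from 30170909 to 38007486 in CON and from 29370025 to 30952882 in RA. The comparison asks which of the genes differ between RA and CON. Differences are given as log2FC, the log2 ratio of RA to CON fitted by edgeR's quasi-likelihood method, with its standard error (SE). A gene was called when its Benjamini-Hochberg adjusted p was under 0.05 and |log2FC| over 0.58. Levels are given in FPKM, the count scaled by gene length and library total, so that genes can be compared per length.

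The cells carried the chondrocyte markers that their label implies. All 10 genes of a chondrocyte marker list were detected, with a summed level of 8029.8 to 9928 FPKM in CON and 5034 to 5364 FPKM in RA, and 9 of the 10 were called lower in RA, where 2.29% of all tested genes were. The summed level of 6 fibroblast and perichondrium markers was 3809.9 to 4995 FPKM in CON and 4945 to 5193 FPKM in RA, with none called. Without the fold threshold, 2 of the 6 passed, Pdgfra (0.44) and Prrx1 (0.49), both higher in RA, where 5.31% of all tested genes were. The others did not pass: Col1a1 (0.21), Thy1 (0.13), Col3a1 (-0.00068) and Dpt. Dpt had the largest change of the 6, in the other direction (-0.73, adjusted p = 0.204, edgeR). The 3 endothelial markers found summed to at most 0.178 FPKM in CON and 0.145 FPKM in RA, and the 3 adipocyte markers to at most 0.291 FPKM in CON and 0.175 FPKM in RA. The 5 osteoblast markers summed to 7.57 to 9.06 FPKM in CON and 6.63 to 7.09 FPKM in RA, mainly from Alpl. Without the fold threshold, 1 of the 3 tested passed, Alpl (-0.42), lower in RA, where 4.5% of all tested genes were. The 5 macrophage markers summed to 13.2 to 14.6 FPKM in CON and 16.1 to 17.3 FPKM in RA, mainly from Cd14, while Ptprc, which defines leukocytes, was at 0.0152 FPKM in CON and 0.0111 FPKM in RA. The 5 skeletal muscle markers summed to 4.72 to 6.00 FPKM in CON and 6.96 to 7.87 FPKM in RA, mainly from Des. Of the 2 tested, 1 was called higher, Myod1, where 2.67% of all tested genes were. Myod1 had 4 to 7 counts in CON and 17 to 25 counts in RA. Des was not called (0.39, adjusted p = 0.0766, edgeR). Ckm, Acta1 and Myh3 were too rare to be tested. In these bulk samples, fewer cells of a type and less RNA per cell cannot be told apart. Whether the marker changes have a part in the results that follow was not tested.

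The FGF receptors differed between RA and CON in both directions. The major receptors Fgfr1, Fgfr2 and Fgfr3 were at similar levels in CON and apart in RA, where Fgfr1 was the highest and Fgfr3 the lowest of them. Fgfr4, a minor receptor in these cells, fell by more than any other member. Among the ligands, Fgf21 fell and Fgf1 rose, both at low levels, and Fgf7, the most abundant of the 6 by FPKM, differed by less than the spread between samples. Of the 10 genes, 9 passed the filter on low counts. Of these, 4 were called, where 4.96% of all 13438 tested genes were: 1 higher, beside 2.67% of all tested genes, and 3 lower, beside 2.29%. The count was 1, Fgfr4, when CON sample 2, RA sample 2 or RA sample 3 was dropped, 2 when CON sample 3 or RA sample 1 was, and 4 when CON sample 1 was. With the adjusted p alone, 6 of the 9 passed, beside 9.82% of all tested genes, 2 of them higher, beside 5.31%, and 4 lower, beside 4.5%. The groups did not overlap for the same 6 of the 9, beside 31.9% of all tested genes, 2 with RA higher, beside 16.8%, and 4 with RA lower, beside 15.1%. Fgfr4 and Fgf21 also stand in a list of strongly changed genes that the study chose on these same samples, so their calls here are not independent evidence.

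**Figure D1:**
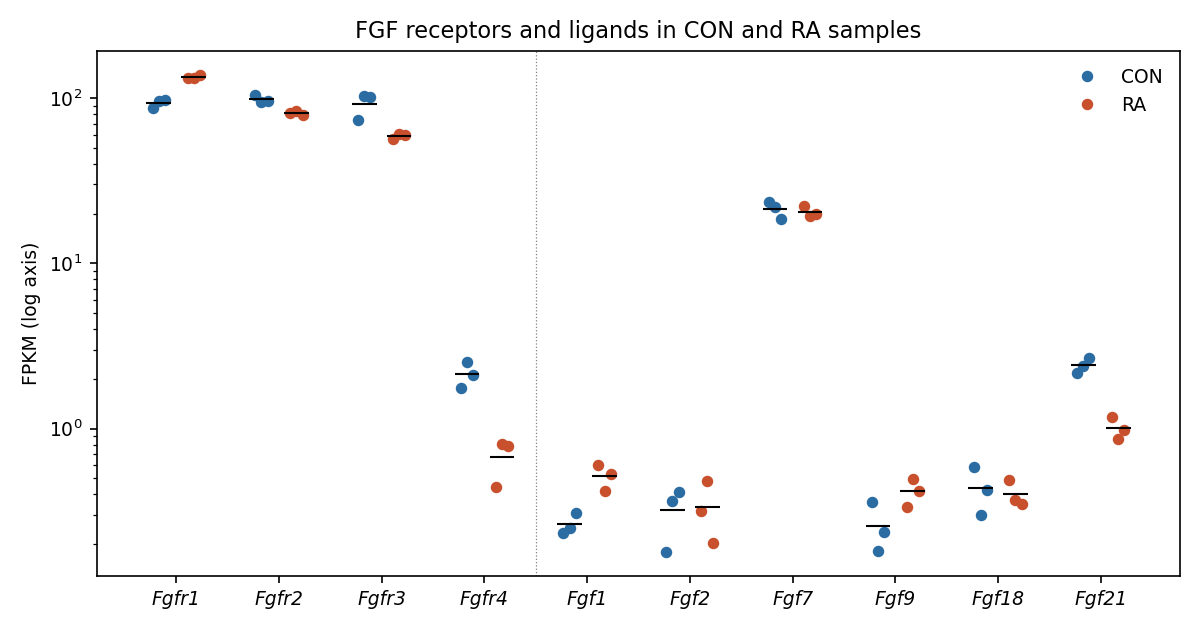
Level of each FGF receptor (left of the dotted line) and ligand (right) in FPKM on a log axis, 1 point per sample, with the mean of each group as a line. Fgfr1 lies higher in every RA sample, Fgfr2, Fgfr3, Fgfr4 and Fgf21 lie lower in every RA sample, and Fgf1 lies higher.

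The promoters of Fgfr3, Fgfr4 and Fgf21, the members called lower, are shown because their transcripts changed under a ligand of nuclear receptors. They are the 250 bases before the RefSeq start on the rat assembly GRCr8. The files were counted on another build, Rnor_6.0, and no binding was measured. Capitals mark matches, on either strand, to AGGTCA and AGTTCA (motifs bound by retinoic acid receptors and other nuclear receptors), GGGCGG (the GC box), TATAAA (the TATA box) and TGATGNAA (the core of the amino acid response element bound by ATF4). CCGGAAG, an ETS core, was also searched and had no match in these windows.
Fgfr3, chr14:81227210-81227459, minus strand: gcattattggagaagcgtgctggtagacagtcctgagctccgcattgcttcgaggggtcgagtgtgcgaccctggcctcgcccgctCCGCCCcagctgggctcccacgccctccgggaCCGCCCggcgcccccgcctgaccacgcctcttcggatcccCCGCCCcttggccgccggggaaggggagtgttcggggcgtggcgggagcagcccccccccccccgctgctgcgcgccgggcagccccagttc
Fgfr4, chr17:9481390-9481639, minus strand: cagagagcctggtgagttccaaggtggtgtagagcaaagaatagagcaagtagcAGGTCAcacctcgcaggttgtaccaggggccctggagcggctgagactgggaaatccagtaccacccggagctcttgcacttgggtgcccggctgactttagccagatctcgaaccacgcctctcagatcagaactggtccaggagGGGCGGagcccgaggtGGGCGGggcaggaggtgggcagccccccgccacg
Fgf21, chr1:105221377-105221626, minus strand: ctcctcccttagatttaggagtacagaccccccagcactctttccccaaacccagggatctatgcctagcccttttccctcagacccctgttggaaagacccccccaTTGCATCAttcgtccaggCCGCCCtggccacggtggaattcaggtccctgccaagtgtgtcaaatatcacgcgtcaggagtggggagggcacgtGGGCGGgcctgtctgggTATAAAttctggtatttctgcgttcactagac
The Fgfr3 window held 3 GC boxes, 164, 132 and 92 bases before the start, and AGTTCA began 5 bases before the start and ended on the start base, so it stands outside the printed stretch in part and is not in capitals. The Fgfr4 window held AGGTCA 196 bases before the start and GC boxes 50 and 34 bases before it, and another GC box lay past the start, outside the printed stretch. The Fgf21 window held TGATGNAA on the opposite strand, 143 bases before the start, GC boxes 125 and 49 bases before it and a TATA box 32 bases before it. The window of Fgf1, not printed, held AGTTCA on the opposite strand, 97 bases before the start, and a GC box past it. The nuclear receptor motifs were also found in windows of members that were not called: AGGTCA in Fgfr2 (231 bases before the start), in Fgf9 (41 bases before it) and, past the start, in Fgf7, which held AGTTCA there too. No matches overlapped in the 3 printed windows. Over all 33469 RefSeq windows of 300 bases (250 before and 50 after a start), AGGTCA was found in 16.2%, AGTTCA in 14.5%, GGGCGG in 33.1%, TATAAA in 14.2%, TGATGNAA in 3.98% and CCGGAAG in 8.75%. A window was given for 9 of the 10 members, all but Fgfr1. The Fgfr2 and Fgfr3 windows were 77.7% and 74.7% GC and the Fgf18 window 81.3% GC, above the 90th percentile of all windows, 68.7%.

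Fgfr1 (ENSRNOG00000016050), a receptor widespread in mesenchyme, was at 87.0, 96.5 and 97.8 FPKM in CON samples 1, 2 and 3 and at 132, 133 and 139 FPKM in RA samples 1, 2 and 3. Every RA sample lay above every CON sample. The mean was 93.8 ± 5.91 FPKM in CON and 134 ± 3.78 FPKM in RA (SD, n = 3), a log2FC of 0.51 (SE 0.0659, 95% interval 0.355 to 0.657, adjusted p = 0.00211, edgeR). This was 1.42-fold higher, past the threshold on p and under the one on fold change, so Fgfr1 was not called. When single samples were dropped, log2FC ran from 0.45 to 0.55 and the adjusted p from 3.95e-05 to 0.0192.

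Fgfr2 (ENSRNOG00000016374), which marks condensing mesenchyme and perichondrium in developing bone, was at 104, 95.3 and 96.5 FPKM in CON and at 81.0, 83.2 and 79.5 FPKM in RA. The groups did not overlap, and the mean went from 98.8 ± 4.97 FPKM to 81.2 ± 1.86 FPKM (SD, n = 3). The log2FC was -0.29 (SE 0.0575, 95% interval -0.426 to -0.163, adjusted p = 0.0141, edgeR), the smallest change among the receptors, and Fgfr2 was not called. Without RA sample 1, 2 or 3 the adjusted p was 0.0774, 0.0594 and 0.0931, at log2FC values of -0.29, -0.32 and -0.28.

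Fgfr3 (ENSRNOG00000016818), the receptor of proliferating and prehypertrophic chondrocytes, was at 73.4, 102 and 101 FPKM in CON and at 56.4, 60.7 and 60.0 FPKM in RA. All RA samples lay below all CON samples, and CON sample 1 lay closer to the RA samples than the other CON samples did. The mean went from 92.4 ± 16.5 FPKM to 59.0 ± 2.30 FPKM (SD, n = 3), a log2FC of -0.66 (SE 0.124, 95% interval -0.944 to -0.375, adjusted p = 0.0121, edgeR), or 1.58-fold lower, and Fgfr3 was called. Without CON sample 1 the log2FC was -0.80 (adjusted p = 7.10e-07). The call was lost on dropping any of the other 5 samples: at -0.59 without CON sample 2 (adjusted p = 0.0583), -0.58 without CON sample 3, where the change fell just short of the fold threshold (adjusted p = 0.028), and -0.62, -0.68 and -0.67 without RA samples 1, 2 and 3 (adjusted p = 0.0665, 0.0522 and 0.0552).

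Fgfr4 (ENSRNOG00000016763), best known from liver and muscle, was the rarest receptor, at 1.76, 2.51 and 2.11 FPKM in CON and 0.442, 0.803 and 0.781 FPKM in RA. These levels rest on 181, 254 and 269 counts in CON and 44, 79 and 81 counts in RA. The lowest CON sample was above the highest RA sample, with RA sample 1 the lowest of all. The mean went from 2.13 ± 0.377 FPKM to 0.675 ± 0.202 FPKM (SD, n = 3), a log2FC of -1.66 (SE 0.246, 95% interval -2.23 to -1.10, adjusted p = 0.00401, edgeR), or 3.17-fold lower. Fgfr4 was the only member called whichever sample was dropped, with log2FC values from -1.81 to -1.43.

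**Figure D2:**
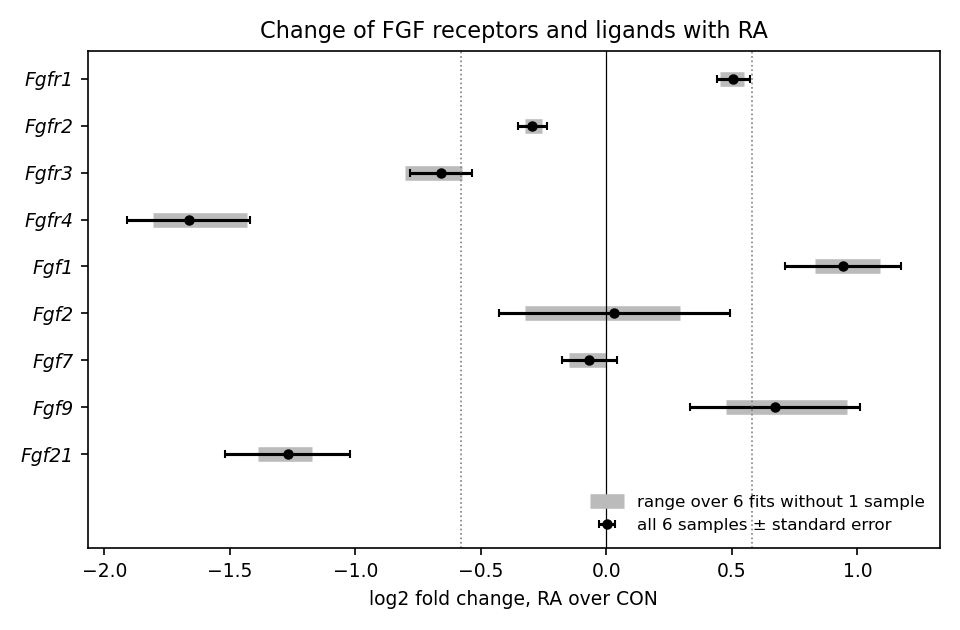
Log2FC of RA over CON for the 9 members tested, with the SE over all 6 samples (black) and the range over the 6 fits without 1 sample (grey); dotted lines mark ±0.58. Fgfr4, Fgf1 and Fgf21 lie beyond the dotted lines over their whole grey range, the Fgfr3 range reaches just inside, and Fgf2 spans 0.

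Within each sample, the receptors can be compared without any scaling between samples. The total of the 4 receptors was 287 ± 17.7 FPKM in CON and 275 ± 5.00 FPKM in RA (SD, n = 3, exact permutation p = 0.4, two-sided). The share of each receptor in it did not overlap between the groups. Fgfr1 made up 32.6%, 32.5% and 32.8% of the receptor total in CON samples 1, 2 and 3, and 48.9%, 47.8% and 49.7% in RA samples 1, 2 and 3. Fgfr3 made up 27.5%, 34.5% and 34.0% in CON and 20.9%, 21.9% and 21.5% in RA. Fgfr2 went from 34.6% ± 4.00 to 29.5% ± 0.878 of the total and Fgfr4 from 0.739% ± 0.0967 to 0.244% ± 0.0698 (SD, n = 3). The share of Fgfr1 was higher in RA by 16.1 percentage points, and that of Fgfr3 was lower by 10.6 points (32.0% ± 3.90 against 21.4% ± 0.487). CON sample 1 had a higher Fgfr2 share, 39.2%, than the other 2, and without it the difference of the Fgfr2 share was -2.75 points instead of -5.06. The log2 ratio of Fgfr3 to Fgfr1 was -0.25, 0.086 and 0.051 in CON and -1.22, -1.13 and -1.21 in RA, a difference of -1.15 in means, and that of Fgfr2 to Fgfr1 differed by -0.80. For each of these 6 measures the groups did not overlap. The exact two-sided permutation p was 0.1 for each, the smallest that 3 against 3 samples allow, and 0.1 after adjustment over the 6.

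**Figure D3:**
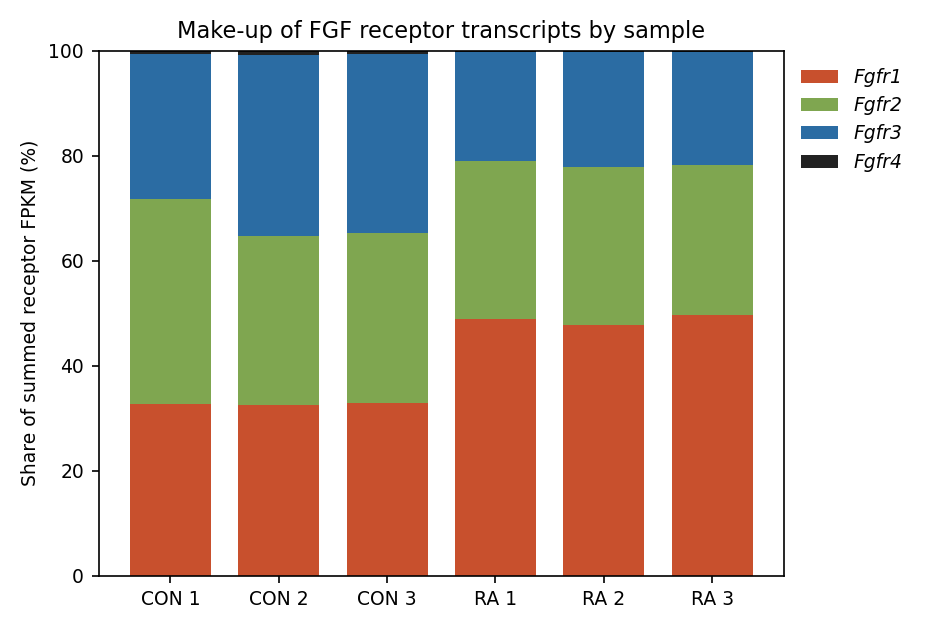
Share of each FGF receptor in the summed receptor FPKM of every sample, in percent. The Fgfr1 share is 32.5% to 32.8% in the CON samples and 47.8% to 49.7% in the RA samples, and the Fgfr3 share is lower in all RA samples than in any CON sample.

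Of the ligands, Fgf21 (ENSRNOG00000020990), a hormone-like stress-responsive member that needs a Klotho co-receptor, was at 2.18, 2.38 and 2.69 FPKM in CON and at 1.18, 0.869 and 0.979 FPKM in RA. These levels rest on 42, 45 and 64 counts in CON and 22, 16 and 19 counts in RA. The groups did not overlap, and the mean went from 2.42 ± 0.254 FPKM to 1.01 ± 0.159 FPKM (SD, n = 3). The log2FC was -1.27 (SE 0.249, 95% interval -1.84 to -0.698, adjusted p = 0.0147, edgeR), or 2.41-fold lower, and Fgf21 was called. The call was lost on dropping CON sample 2 (-1.29, adjusted p = 0.0558), CON sample 3 (-1.17, 0.0529), RA sample 2 (-1.18, 0.0747) or RA sample 3 (-1.25, 0.0721).

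Fgf1 (ENSRNOG00000013867), a ligand that binds all FGF receptors and lacks a classical secretion signal, was at 0.232, 0.251 and 0.310 FPKM in CON and at 0.600, 0.417 and 0.532 FPKM in RA. It rested on 32, 34 and 53 counts in CON and 80, 55 and 74 counts in RA. Every RA sample lay above every CON sample, the mean going from 0.264 ± 0.0409 FPKM to 0.516 ± 0.0925 FPKM (SD, n = 3), a log2FC of 0.94 (SE 0.231, 95% interval 0.414 to 1.47, adjusted p = 0.0378, edgeR). It was called higher, and the call was lost on dropping CON sample 2 (0.90, adjusted p = 0.125), RA sample 1 (0.83, 0.145), RA sample 2 (1.07, 0.0587) or RA sample 3 (0.92, 0.137).

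Fgf7 (ENSRNOG00000009425), the keratinocyte growth factor, which mesenchymal cells make and which acts on the epithelial form of FGFR2, was the most abundant ligand by FPKM. By counts, Fgf10, which is not a member, was close to it, with 421 to 532 in CON against 460 to 497. The lengths behind FPKM were 4242 bases for Fgf10 and 693 bases for Fgf7. Fgf7 was at 23.4, 22.0 and 18.6 FPKM in CON and at 22.3, 19.4 and 19.8 FPKM in RA, and the groups overlapped. Its log2FC was -0.07 (95% interval -0.319 to 0.182, adjusted p = 0.745, edgeR). Fgf9 (ENSRNOG00000011471), a ligand of FGFR3, had between 11 and 22 counts in CON and between 20 and 29 counts in RA. It went from 0.259 ± 0.0901 FPKM to 0.417 ± 0.0785 FPKM (SD, n = 3), a log2FC of 0.67 with a 95% interval from -0.107 to 1.45 (adjusted p = 0.275, edgeR), an interval that holds both 0 and changes beyond the threshold. Fgf2 (ENSRNOG00000017392), a matrix-bound ligand of cartilage, had 7 to 20 counts in CON and 8 to 18 counts in RA, at 0.320 ± 0.124 FPKM and 0.335 ± 0.140 FPKM (SD, n = 3). Its log2FC was 0.03, with a 95% interval from -1.02 to 1.09 (adjusted p = 0.976, edgeR). Fgf18 (ENSRNOG00000048389), a growth plate ligand of FGFR3, had 10, 5 and 9 counts in CON and 8, 6 and 6 counts in RA, or 0.437 ± 0.144 FPKM and 0.401 ± 0.0738 FPKM (SD, n = 3). It was removed by the filter for rare genes, and with no filter its log2FC was -0.14, with an interval from -1.34 to 1.06 (adjusted p = 0.915, edgeR). For Fgf9, Fgf2 and Fgf18, changes inside these intervals could not be resolved at this depth.

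In CON the members fell into 4 tiers by mean FPKM. Fgfr2, Fgfr1 and Fgfr3 came first at 92.4 to 98.8 FPKM, and their samples overlapped. Fgf7 followed at 21.3 FPKM, then Fgf21 and Fgfr4 at 2.42 and 2.13 FPKM, which overlapped, and then Fgf18, Fgf2, Fgf1 and Fgf9 at 0.259 to 0.437 FPKM, which overlapped too. In RA the order at the top was Fgfr1, Fgfr2 and Fgfr3 at 134, 81.2 and 59.0 FPKM, with no overlap between neighbours. The gene lengths behind these FPKM values ran from 555 bases for Fgf18 to 4772 bases for Fgfr2, and levels compared between genes depend on them.

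Other secreted FGFs were measured beside the members. Of 12 further ligands listed, 7 were matched in the files and 2 passed the filter, with 0 called by edgeR's test and 0 at an unadjusted p below 0.05. DESeq2 called 0 as well. Fgf22 was at 8.18 ± 1.51 FPKM in CON and 8.21 ± 0.947 FPKM in RA, with a log2FC of -0.01, and Fgf10, which limb mesenchyme makes, at 3.39 ± 0.646 and 3.55 ± 0.0628 FPKM (SD, n = 3), with 0.06. The summed level of the members' ligands and these further ones was 36.7 ± 2.84 FPKM in CON and 35.0 ± 2.73 FPKM in RA (SD, n = 3, exact permutation p = 0.5, two-sided). Of the 4 intracellular FGF homologous factors, which do not activate FGF receptors, 1 passed the filter, Fgf13, with a log2FC of -0.51 (adjusted p = 0.368, edgeR).

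Of 6 tested genes of a list of co-receptors and FGF binding proteins, 0 were called higher, beside 2.67% of all tested genes, and 3 lower, beside 2.29%, with a median log2FC of -0.70 beside -0.0057 over all tested genes. Fgfrl1, a decoy-like receptor without a kinase domain, was at 42.7, 47.3 and 50.1 FPKM in CON and at 26.6, 28.3 and 29.9 FPKM in RA, a log2FC of -0.74 (SE 0.0818, adjusted p = 9.23e-04, edgeR). It was called whichever sample was dropped. Fgfbp1, which frees FGFs from the matrix, fell at a low level from 0.826 ± 0.216 to 0.248 ± 0.0593 FPKM (SD, n = 3), a log2FC of -1.74 (adjusted p = 0.0192, edgeR). Its call was lost without CON sample 3 (-1.66) or RA sample 1, 2 or 3 (-1.83, -1.85 and -1.56). Flrt3, a membrane protein that binds FGF receptors, had a log2FC of -0.81 (adjusted p = 0.00947, edgeR), and was not called without RA sample 2 (-0.77, adjusted p = 0.054). Flrt2 had 0.21, Fgfbp3 0.34 and Flrt1 -0.66, none of them called. When single samples were dropped, Fgfbp3 ran from 0.13 to 0.49 and Flrt1 from -1.01 to -0.19, and the list median rests in part on Flrt1. Kl, the FGF23 co-receptor, had at most 4 counts in any sample.

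Of 18 genes of heparan sulfate proteoglycans and their enzymes, all tested, 0 were called higher and 2 lower, beside 2.67% and 2.29% of all tested genes, with a median of -0.08. Hs6st2, a 6-O-sulfotransferase, went from 32.4 ± 1.04 to 18.5 ± 1.30 FPKM (SD, n = 3), a log2FC of -0.83 (adjusted p = 2.37e-04, edgeR), and the glypican Gpc3 had -0.66 (adjusted p = 0.0057, edgeR). Of 23 signal transduction genes, among them adaptors, RAS and RAF genes and kinases, 1 was called higher and 0 lower, a share near the 4.96% called over all tested genes, with a median of 0.04. The one called was Pik3r1, the regulatory subunit of PI3K, with a log2FC of 0.90 (adjusted p = 1.46e-04, edgeR). Frs2, the docking protein of FGF receptors, had -0.04 and was not called.

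Many genes that ERK signalling is known to raise rose in RA. Of the 14 tested genes of a list of ERK feedback and response genes, 8 were called higher, where 2.67% of all tested genes were, and 0 lower, and their median log2FC was 0.93 beside -0.0057 over all tested genes. The list was chosen with earlier results of these data known, so its counts are a description only. All 14 had a log2FC above 0 with all samples, and without RA sample 2 Il17rd was at -0.069. Etv4, an ETS transcription factor of the PEA3 group and a common readout of FGF signalling, was at 0.606, 1.15 and 1.00 FPKM in CON and at 6.33, 4.97 and 5.47 FPKM in RA. Its log2FC was 2.59 (SE 0.222, adjusted p = 2.37e-04, edgeR), or 6.01-fold. The other PEA3 factors Etv5 and Etv1 had log2FC values of 1.23 and 1.22. Etv5 went from 6.73 ± 0.512 to 15.9 ± 0.476 FPKM (SD, n = 3).

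Among the inhibitors, Dusp6, the cytoplasmic ERK phosphatase, was at 2.27, 2.47 and 2.25 FPKM in CON and at 6.89, 6.13 and 5.72 FPKM in RA, a log2FC of 1.41 (SE 0.108, adjusted p = 1.37e-04, edgeR). The nuclear phosphatase gene Dusp4 had 1.10 and was not called on dropping CON sample 2 (0.96, adjusted p = 0.0541), RA sample 1 (1.05, 0.0636) or RA sample 3 (1.06, 0.0646). The Sprouty genes Spry4 and Spry2 had 1.45 and 0.76, and Spred3 had 1.13. Spry1 (0.58), Spred1 (0.30), Spred2 (0.51), Dusp5 (0.37), Il17rd (0.32) and the immediate early gene Egr1 (0.50) were not called, and Egr1 was called without CON sample 3 (0.60). When single samples were dropped, Spry1 ran from 0.28 to 0.83 and Dusp5 from 0.24 to 0.49. Of the 8 called genes, all but Dusp4 were called whichever sample was dropped.

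**Figure D4:**
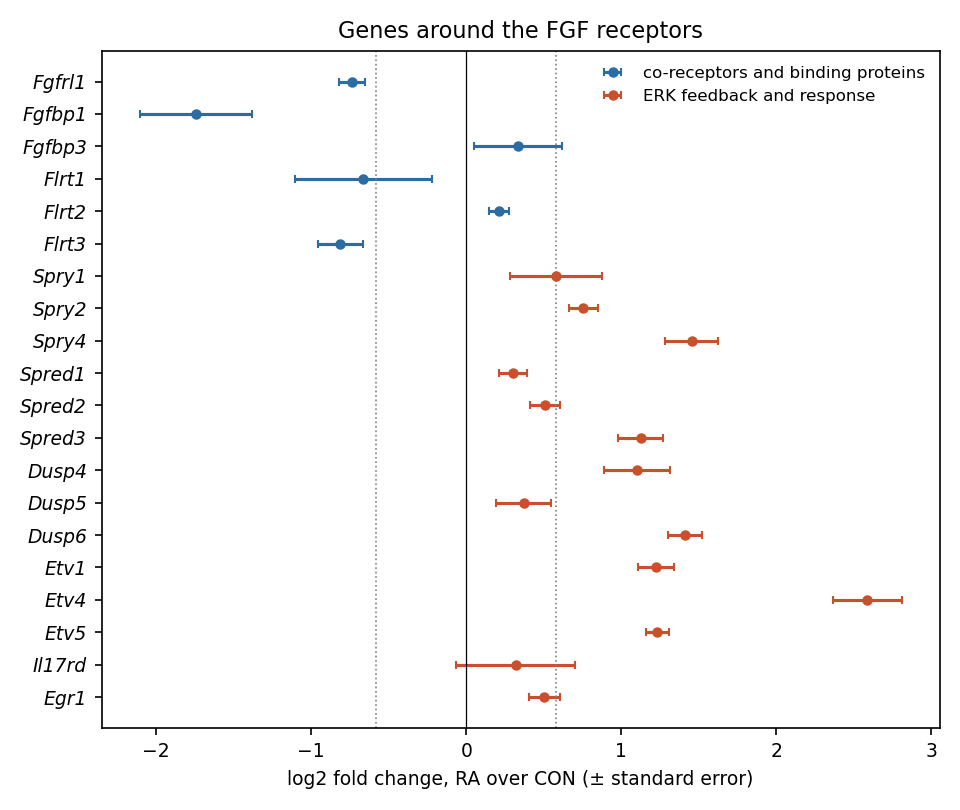
Log2FC of RA over CON, with its SE, for the tested co-receptors and FGF binding proteins (blue) and the ERK feedback and response genes (red); dotted lines mark ±0.58. The called Fgfrl1, Fgfbp1 and Flrt3 and the uncalled Flrt1, with a wide error, lie left of the dotted line, and all red points lie right of 0.

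**Figure D5:**
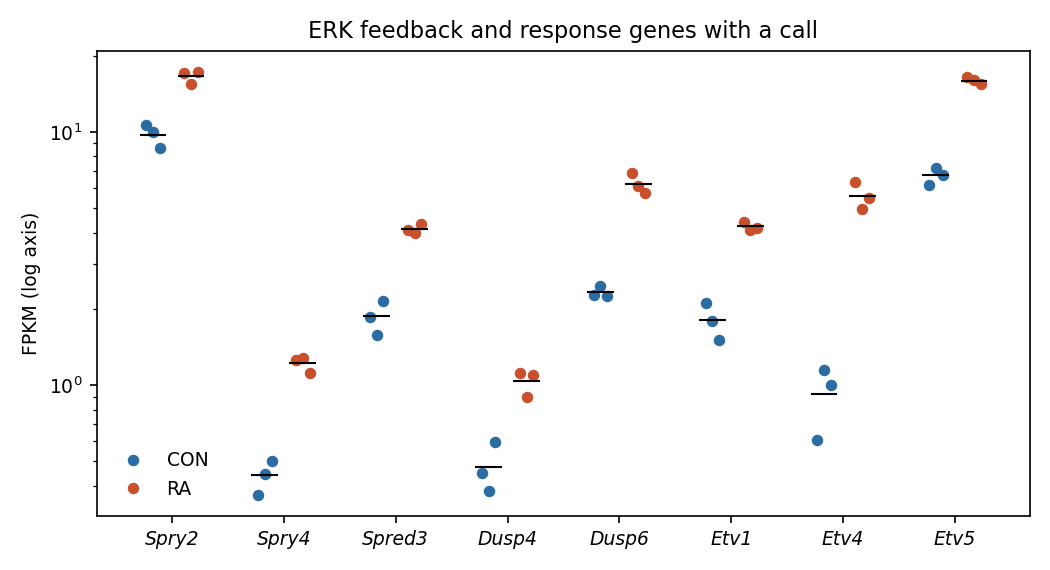
FPKM on a log axis of the 8 called ERK feedback and response genes in every CON (blue) and RA (red) sample, with the mean of each group as a line. The RA samples lie above the CON samples for each of the 8 genes.

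Growth plate genes that act with FGFR3 differed among themselves. Of 10 tested, 1 was called higher and 2 lower, beside 2.67% and 2.29% of all tested genes, with a median of -0.13. Without the fold threshold, 2 passed on the higher side and 3 on the lower, beside 5.31% and 4.5% of all tested genes. The added ones were Npr2 (0.35, adjusted p = 0.0362, edgeR) and Sox9 (-0.49, adjusted p = 0.00608, edgeR). Npr3, the clearance receptor of natriuretic peptides, went from 10.6 ± 0.397 to 4.93 ± 0.196 FPKM (SD, n = 3), a log2FC of -1.12 (adjusted p = 1.34e-04, edgeR). Gli1, a hedgehog target, had -0.84 (adjusted p = 0.00818, edgeR), and Bmp4 had 0.64 (adjusted p = 8.64e-04, edgeR). Ihh itself had a log2FC of -1.63 at 0.273 ± 0.0418 FPKM in CON and 0.0878 ± 0.0504 FPKM in RA (SD, n = 3) and was not called (adjusted p = 0.0669, edgeR).

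Of 9 genes known to regulate Fgf21 or to share its stress regulators, 1 was called higher, Pparg (1.35), and 0 lower, beside 2.67% and 2.29% of all tested genes. The call of Pparg was lost when CON sample 2 (1.32), RA sample 2 (1.22) or RA sample 3 (1.32) was dropped. Without the fold threshold, 4 of the 9 were past the adjusted p on the lower side, where 4.5% of all tested genes were. These were Atf4 (-0.31), Ddit3 (-0.39), Trib3 (-0.45) and Sesn2 (-0.37). Asns (-0.16), Chac1 (-0.34) and Psat1 (0.13) did not pass. Whether any of these genes has a part in the change of Fgf21 was not tested. The receptor gene Ppara, a known activator of Fgf21 in liver, had -0.38 and was not called.

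Known retinoid response genes were examined as a check of the labels. Of 9 tested, 6 were called higher, beside 2.67% of all tested genes, and 1 lower, beside 2.29%. Cyp26a1 and Cyp26b1, which degrade RA, had log2FC values of 3.35 and 2.65, Dhrs3 had 0.63 and Tgm2 0.91, the last not called without RA sample 3 (0.84). Rarb, with 1.43, was also called higher. Rarb was called in 1 of the 6 fits with a sample dropped, the one without CON sample 1, with log2FC values from 1.12 to 1.85. Rarres1 had -0.87, and was not called without RA sample 1 (-0.82) or RA sample 2 (-0.78).

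The genes whose pattern over the 6 samples was most like that of each called member were found by Pearson's r of log2 CPM, among at least 11296 genes. For Fgfr3 they were Col11a2 (0.997), a cartilage collagen, Enpp6 (0.997) and Col16a1 (0.996). For Fgfr4 they were Dpf1 (0.997), Inhbe (0.991) and Ctsd (0.990), for Fgf1 they were Dsc2 (0.996) and Abl2 (0.993), and for Fgf21 they were Gfap (0.999), Adcy2 (0.998) and Tnfaip6 (0.995). All these values share the same 6 libraries and the step between CON and RA, so they are a description only.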

How the data were processed

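For each of the 6 samples the authors deposited 1 table, with a whole-number count of reads per gene, not normalized, for 18923 genes, and an FPKM value beside it. Dividing count by FPKM showed that FPKM is the count scaled by gene length and by the total count of that sample, with no further normalization. The submitters' processing notes name HISAT2, HTSeq 0.13.5 and the build Rnor_6.0, without options, so it is not stated whether strand was used, and reads shared with a gene copy are uncertain. Groups and replicate numbers came from the sample titles.

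Counts were fitted with edgeR 4.0.16 in R 4.3.3 (TMM, filterByExpr with a minimum count of 10, glmQLFit and glmQLFTest, all 6 samples, no covariates), which kept 13438 genes, and p-values were adjusted by Benjamini-Hochberg over all of them. The cut-offs, 0.05 on p and 0.58 on |log2FC|, are those the study names. Its methods give a p-value and its results a false discovery rate, and the adjusted p was used here. Standard errors come from the F statistic. Receptor shares were tested by exact two-sided permutation. A level of 3 counts, the most that 0 counts allow, correspond to 0.0789 to 0.102 CPM, for counting error only. The members, the gene lists and the rule for named genes (all members, called genes of each list, all tested genes of the co-receptor and ERK lists, and the 3 most alike genes for each called member) were chosen with earlier results of these data known. Lists were matched by symbol or RefSeq synonym. Fgf3, Fgf4, Fgf6, Fgf20, Fgf23, Klb, Pthlh and Pecam1 had no match and are not analysed here. A few genes that the rule names are not reported here, though counts over the lists include them. Alternatives were DESeq2 1.42.0, RLE factors, total counts only, other filters, limma 3.58.1 on log2(FPKM + 0.1) and log2(FPKM + 1), other call rules, a replicate block and each sample left out. The fit was tested on simulated counts.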

Additional observations from a re-analysis of the deposited data

How the results depend on the processing

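With all samples, 4 members were called, Fgfr3, Fgfr4, Fgf1 and Fgf21. The same 4 were called by DESeq2, with RLE factors, with total counts only, without the filter on low counts, by the unadjusted p with the fold threshold, and with the replicate block. Without the fold threshold 6 members passed, the added ones being Fgfr1 and Fgfr2. Fgf1 was not called by limma on log2(FPKM + 0.1) (0.75, adjusted p = 0.0539) or log2(FPKM + 1) (0.26, 0.055), and Fgf21 was not tested at a minimum of 50 counts. With each sample left out in turn, between 1 and 4 members were called: 4 without CON sample 1, 2 without CON sample 3 or RA sample 1, and only Fgfr4 when CON sample 2, RA sample 2 or RA sample 3 was dropped. Over all genes, 667 were called with all samples, 480 to 755 without 1 sample, 434 by limma on log2(FPKM + 1), 1319 without the fold threshold and 1017 with the unadjusted p. Over the pathway lists, 25 genes were called, 20 to 27 without 1 sample, 21 at a minimum of 50 counts, 18 by limma on log2(FPKM + 1) and 40 without the fold threshold. The calls lost by limma on log2(FPKM + 1) included Gpc3 (-0.55) and Gli1 (-0.57), whose changes on that scale were under the fold threshold, and Dusp4 (0.47), Fgfbp1 (-0.54), Pparg (0.43), Rarb (0.40) and Tgm2 (0.52). The sign turned for Fgf2, to -0.25 without CON sample 1 and -0.33 without RA sample 2 (range -0.33 to 0.29 over the dropped samples), and for Il17rd, to -0.069 without RA sample 2 (range -0.069 to 0.53), none of them called. The receptor shares and ratios kept their direction under every alternative run, from 15.7 to 16.6 percentage points for Fgfr1 and from -12.8 to -9.34 for Fgfr3 without 1 sample. The replicate numbers showed no clear pairing of the samples. Same-numbered samples correlated at 0.0928, -0.0123 and 0.0118 over their deviations from the group means, and CON sample 3 correlated best with RA sample 2 (0.11). Deviations from the mean of 3 samples depend on each other, so these values cannot decide whether same-numbered samples share an origin. With the replicate block, 684 genes and 4 members were called, 24 of the pathway genes were, and Rarb lost its call (1.46, adjusted p = 0.0526). With 3 samples per group and 5 to 29 counts, changes of Fgf2, Fgf9 and Fgf18 inside the intervals given could not be resolved.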
